A study of Mus musculus with 6 samples.

Results

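The Fanconi anemia and homologous recombination genes are a set of 35 named repair genes, of which 33 could be read in these data. A gene counted as measured where a probe set of the array carried its symbol and no other, and the probe set of highest mean over all 6 arrays stood for the gene. The 33 are part of 22180 genes measured that way. Fanca, a core complex gene, was left out because its probe set is shared with Zfp276, and Xrcc2, a gene of homologous recombination, had no probe set under its symbol. Atr was the only member with more than 1 probe set of its own.

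Total RNA came from megakaryocyte-erythroid progenitors (MEP), the marrow cells from which platelet-forming and red cells arise, taken from fresh marrow by flow sorting and hybridised to Affymetrix arrays. The labels give 3 T-bet knockout and 3 wild-type arrays, all of C57BL/6 mice, and describe the arrays of a group as different animals. The labels state neither the age of the mice, nor the knockout allele and the cells it is lost from, nor the surface markers of the sort. Tbx21 encodes T-bet, a T-box factor best known from T helper and natural killer cells, and the comparison asks what its absence does to the transcripts of these progenitors. Values are log2 signals, on which a difference of 1 is a doubling, and ± is the SD over 3 arrays.

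An interstrand crosslink ties both strands of DNA together and stops the replication fork. The Fanconi core complex, a ubiquitin ligase assembled around FANCL, then marks the FANCD2-FANCI pair, nucleases cut the crosslink loose, and the break is repaired from the sister strand by homologous recombination. In that repair the MRE11-RAD50-NBN complex and EXO1 trim the broken end, BRCA1 and PALB2 bring in BRCA2, which acts on the single strand so exposed. Inherited loss of Fanconi genes is known for marrow failure, and blood progenitors depend on this repair. Transcription of many of these genes rises in dividing cells through E2F factors.

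Facts of the whole series come first, since they touch every gene below. Array medians lay between 6.44 and 6.53, and arrays correlated across probe sets at 0.980 to 0.987 within a group and 0.982 to 0.987 between groups. Erythroid markers of the MEP stage had strong signals in both groups, among them Gata1 (10.97 ± 0.03 in knockout, 10.96 ± 0.05 in wild type) and Car1 (13.68 ± 0.01 and 13.65 ± 0.04). The lowest of the 17 measured MEP markers were Nfe2, Itga2b, Vwf and Pf4. Those read 7.67, 7.25, 7.13 and 6.71 in the knockout and 7.69, 7.59, 7.32 and 7.19 in the wild type. The signal of Tbx21 itself was 6.49 ± 0.10 with the knockout label and 6.58 ± 0.04 with the wild-type label, with overlapping values, so it gave no check of the labels, and the exons under its probe set are unknown here. Xist, the RNA of the inactive X chromosome, and the Y-linked genes Eif2s3y and Uty were all present on knockout replicates 1 and 2 and wild-type replicate 1. The replicate 3 array of each group had Y-linked signal without Xist, and wild-type replicate 2 had Xist without Y-linked signal. Whether an array holds RNA of more than 1 mouse was not tested. The p-values below set each difference against the spread between these 6 arrays, with each gene's variance drawn toward a value shared by all probe sets.

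None of the 33 repair genes passed the test between knockout and wild type. Their differences ran from -0.12 (Brip1) to 0.18 (Rad51b) on the log2 scale, with a median of 0.025. Every member was measured outside the dim 30% of probe sets, and every 95% interval stayed inside a 1.5-fold change in either direction, where 93.1% of all genes outside the dim 30% and 85.9% of all genes had such an interval. The highest bound was 0.53, for Fancb, and the lowest bound was -0.44, for Brip1. The intervals of 28 members stayed inside 1.3-fold, 84.8% of the members, against 62.8% of all genes outside the dim 30% and 52.6% of all genes. The other 5 were Fancb, Fancf, Brip1, Rad51b and Rad51d. Related lists described below had similar shares inside 1.3-fold, 84.2% for other Fanconi and crosslink repair and 86.2% for other homologous recombination. Shares were 79.5% for S phase genes, 70.4% for mitosis genes and 33.3% for p53 response genes. In bulk RNA a smaller share of cells with a transcript and less of it in each cell cannot be told apart.

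The test was limma's moderated test with Benjamini-Hochberg adjustment over 41345 probe sets, and the adjusted p was 1 for every member (0 of 33 under 0.05, where the background is 0% of probe sets and 0% of genes). At an unadjusted limma p under 0.05 there were also 0 members, against 3.13% of all genes (1.44% higher and 1.70% lower in the knockout), and the smallest was 0.115 for Rad51b. Of the members 23 lay above 0 and 10 below, where 48.2% of all genes lay above 0 and the median over all genes was -0.0045. The count above 0 was 20 after a further quantile normalization, where 43.5% of all genes lay above 0. The knockout and wild-type values did not overlap for 3 members, all higher in the knockout, which is 9.09% of the members. The background is 8.70% of all genes, 3.52% higher and 5.18% lower, so the members' share was close to that of genes in general.

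**Figure D1:**
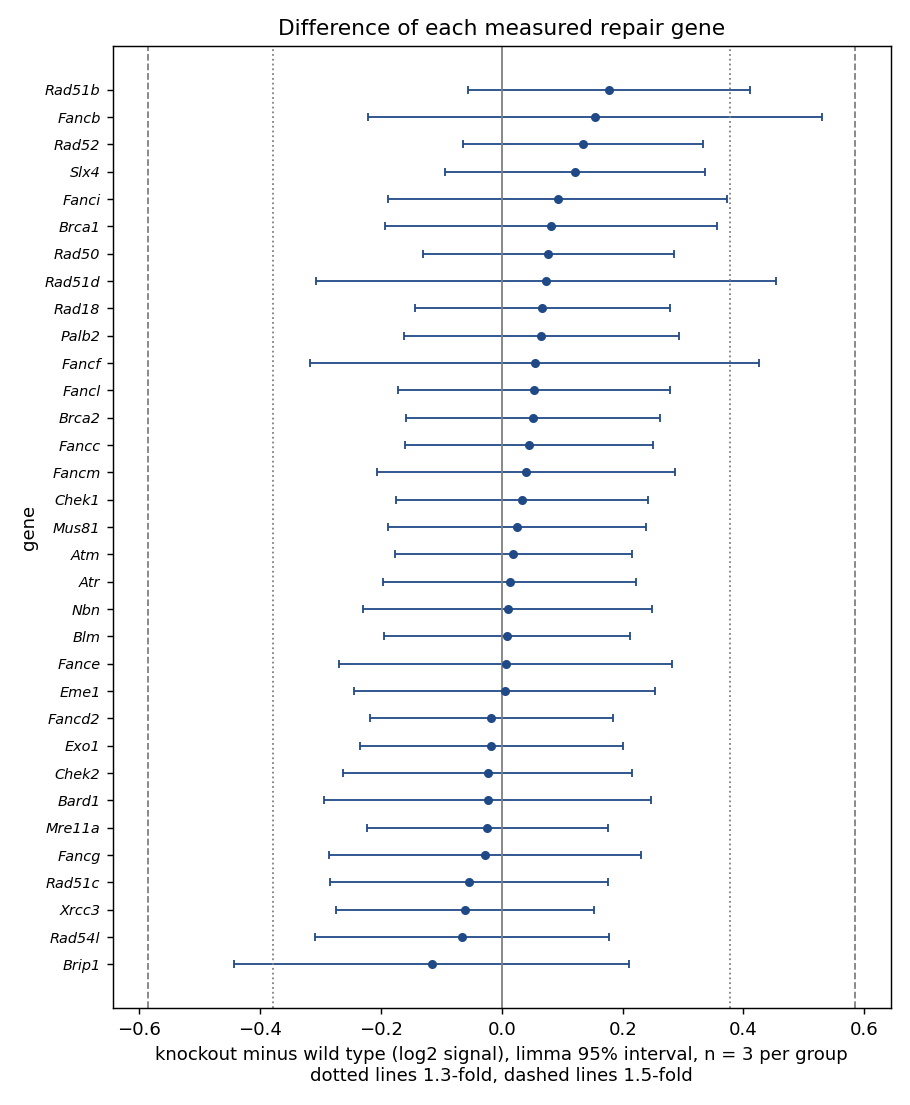
Difference between knockout and wild type for each of the 33 measured genes (x axis, log2 signal; points, limma estimate; bars, 95% interval; 3 arrays per group). Every bar crosses 0 and stays between the dashed lines at 1.5-fold, and 28 stay between the dotted lines at 1.3-fold.

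The Fanconi core complex genes were 7 of the measured members, 6 above 0 and 1 below, with a median of 0.045 and none past the test. Fancb, an X-linked gene whose protein forms the catalytic module with FANCL, read 7.42, 7.84 and 7.83 in the knockout and 7.54, 7.73 and 7.36 in the wild type, here and below in the order of the replicate numbers. Knockout replicate 1 and wild-type replicate 3 were the low arrays, and the groups overlapped. Its difference was 0.15 (SE 0.16, interval -0.22 to 0.53), and it was 0.29 without knockout replicate 1 and 0.06 without wild-type replicate 3. Because the gene lies on the X chromosome its value can also be read by sex-linked signal. On the arrays with Y-linked signal alone it was 7.83 in the knockout and 7.36 in the wild type, and on those with both signals 7.42 and 7.84 against 7.54.

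The other core genes differed by less. Fancl, the ubiquitin ligase of the complex, differed by 0.05 (SE 0.09), and Fancm, the helicase that anchors the complex on DNA, by 0.04 (SE 0.10). Fancc and Fance, whose proteins bind each other and contact FANCD2, differed by 0.04 (SE 0.09) and 0.006 (SE 0.12). Fancf, an adaptor, differed by 0.05 (SE 0.16), and its 6 values spanned 0.49, from 7.95 in wild-type replicate 1 to 8.44 in knockout replicate 2. Fancg, a scaffold, was the member below 0, at -0.027 (SE 0.11).

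Fancd2 and Fanci encode the pair that the core complex marks. Fancd2 read 10.20, 10.25 and 10.29 in the knockout and 10.24, 10.31 and 10.25 in the wild type, a range of 0.11 over all arrays and a difference of -0.017 (SE 0.08). Fanci read 8.73, 8.96 and 9.03 in the knockout and 8.70, 8.91 and 8.83 in the wild type. Its low arrays were replicate 1 of each group, the groups overlapped, and the difference was 0.09 (SE 0.12, interval -0.19 to 0.37). It was 0.18 without knockout replicate 1 and 0.03 without knockout replicate 3.

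The breast cancer susceptibility genes and their partners were 5 members, 3 above 0 and 2 below, with a median of 0.051 and none past the test. Brca1, which directs end resection and recruits PALB2, read 9.03, 9.32 and 9.37 in the knockout and 9.15, 9.19 and 9.14 in the wild type. The knockout arrays fell on both sides of the wild-type arrays, with replicate 1 below all of them and replicates 2 and 3 above. The mean difference was 0.08 (SE 0.12), and it was 0.19 without knockout replicate 1 and 0.02 without knockout replicate 3. Bard1, the obligate partner of BRCA1, read 8.61 on knockout replicate 1 and 8.88 and 8.89 on the other 2, and its difference was -0.024 (SE 0.11).

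Brca2, a central gene of homologous recombination, read 9.54, 9.64 and 9.66 in the knockout and 9.60, 9.58 and 9.51 in the wild type, a difference of 0.05 (SE 0.09). Palb2, which bridges BRCA1 and BRCA2, differed by 0.07 (SE 0.10). Brip1, a helicase that binds BRCA1, had the lowest difference of all members. It read 8.43, 8.88 and 8.76 in the knockout and 8.77, 8.90 and 8.74 in the wild type. The low value was that of knockout replicate 1 alone. The difference of -0.12 (SE 0.14, interval -0.44 to 0.21) became 0.014 without that array and -0.21 without knockout replicate 2.

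**Figure D2:**
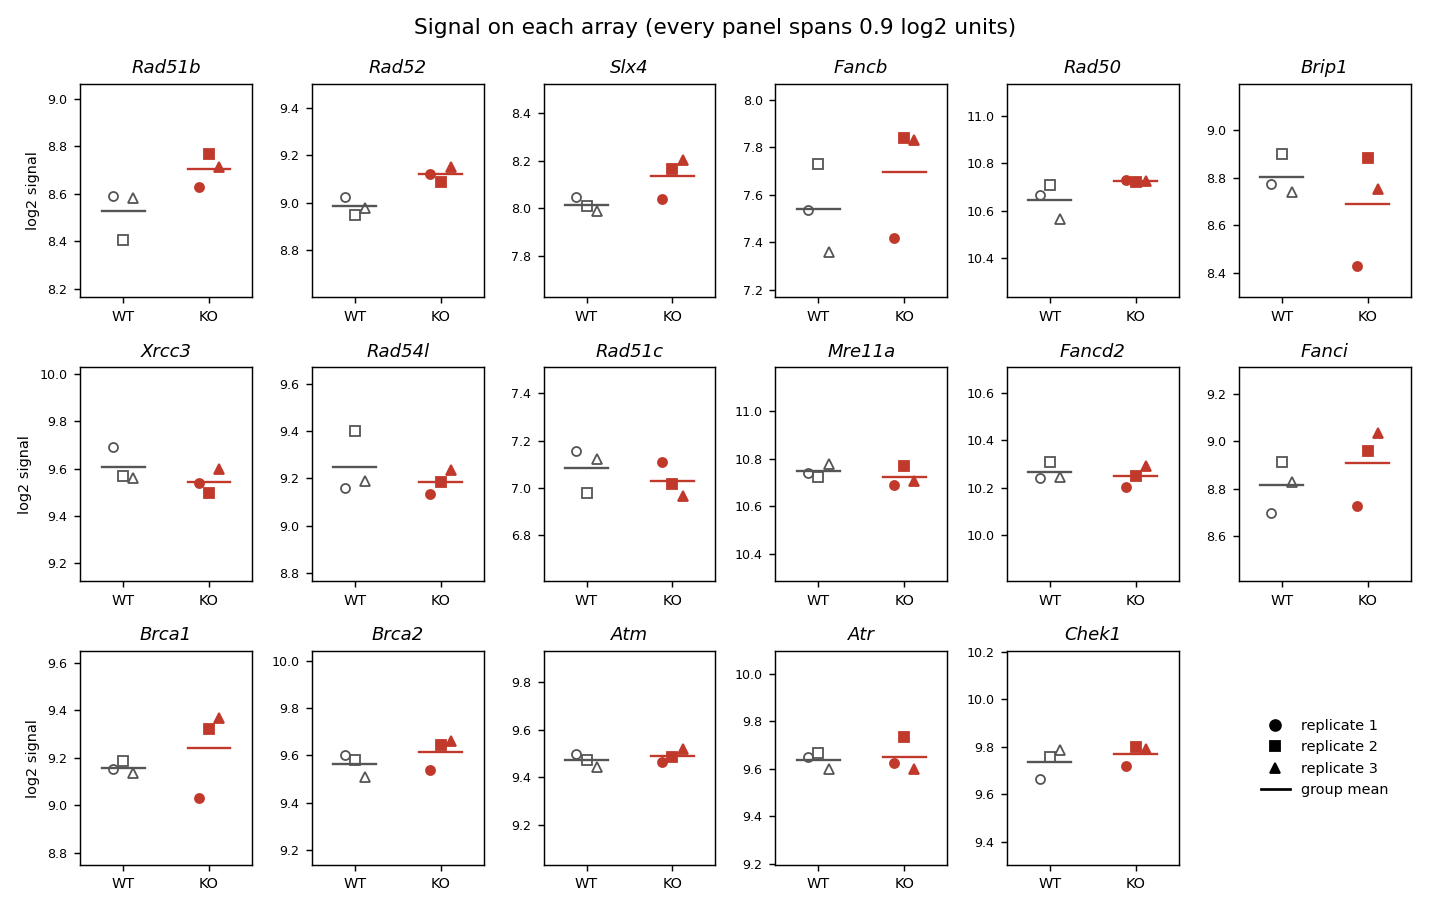
Log2 signal (y axis, every panel spanning 0.9 units) on each wild-type (WT, open grey) and knockout (KO, filled red) array for 17 members, with symbols for the replicate number and lines for group means. Rad51b, Rad52 and Rad50 are the panels whose groups do not overlap, and in Brca1 and Brip1 the replicate 1 knockout array lies below all wild-type arrays.

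Rad51b, Rad51c, Rad51d and Xrcc3 encode proteins that work together in complexes during the strand exchange of homologous recombination. Of these 4 genes, 2 were above 0 and 2 below, with a median of 0.009. Rad51b read 8.63, 8.77 and 8.71 in the knockout and 8.59, 8.40 and 8.58 in the wild type. All knockout arrays lay above all wild-type arrays, by 0.04 at the closest pair, and wild-type replicate 2 was the low array. The difference of 0.18 (SE 0.10, interval -0.06 to 0.41) was the highest of the members and did not pass (limma adjusted p = 1). It ranged from 0.12 to 0.21 over the 14 alternative settings and was 0.12 without wild-type replicate 2.

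Rad51c, which the complexes share, read 7.11, 7.02 and 6.97 in the knockout and 7.16, 6.98 and 7.12 in the wild type, a difference of -0.05 (SE 0.10) with overlapping groups. Xrcc3, its partner, read 9.54, 9.50 and 9.60 in the knockout and 9.69, 9.57 and 9.56 in the wild type, a difference of -0.06 (SE 0.09). Rad51d had the widest spread of all members, 0.55 from 8.53 on knockout replicate 1 to 9.08 on knockout replicate 2. Its group difference, 0.07 (SE 0.16), was smaller than that spread.

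Rad52, a strand annealing protein gene, read 9.12, 9.09 and 9.15 in the knockout and 9.02, 8.95 and 8.98 in the wild type. The groups did not overlap, and the SD was 0.03 in the knockout and 0.04 in the wild type. The difference was 0.13 (SE 0.08, interval -0.06 to 0.33), and over the alternative settings it ranged from 0.12 to 0.15. Rad54l, a DNA motor of strand exchange, read 9.13, 9.19 and 9.24 in the knockout and 9.16, 9.40 and 9.19 in the wild type. Its difference of -0.07 (SE 0.10) rested on wild-type replicate 2, without which it was 0.010.

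The genes of end sensing and resection, with Blm, were 5 members, 3 above 0 and 2 below, and all 5 intervals stayed inside 1.3-fold. Mre11a, the nuclease of the MRN complex, read 10.69, 10.77 and 10.71 in the knockout and 10.74, 10.72 and 10.78 in the wild type, a difference of -0.024 (SE 0.08). Rad50, the clamp-like ATPase that holds the ends, read 10.73, 10.72 and 10.72 in the knockout and 10.66, 10.71 and 10.56 in the wild type. Its groups did not overlap, but the closest pair was 0.01 apart. The difference was 0.08 (SE 0.09). Nbn, the subunit that calls in ATM, differed by 0.010 (SE 0.10). Exo1, a long-range resection nuclease, and Blm, the helicase of Bloom syndrome, differed by -0.017 (SE 0.09) and 0.009 (SE 0.09).

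The checkpoint kinase genes had 4 of 4 intervals inside 1.3-fold and differences between -0.023 and 0.034. Atm, the kinase of double strand breaks, read 9.47, 9.49 and 9.52 in the knockout and 9.50, 9.47 and 9.44 in the wild type, a range of 0.076 over all 6 arrays and the smallest of any member. Atr, the kinase of stalled forks, read 9.62, 9.73 and 9.60 in the knockout and 9.65, 9.67 and 9.60 in the wild type, a difference of 0.013 (SE 0.09). Its second probe set, with a lower signal, differed by 0.13 (SE 0.11) and did not pass either. Chek1, which ATR activates, read 9.72, 9.80 and 9.79 in the knockout and 9.66, 9.76 and 9.79 in the wild type, a difference of 0.03 (SE 0.09). Chek2, which ATM activates, differed by -0.023 (SE 0.10).

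Among the nucleases and their scaffold, Slx4, the platform that holds several nucleases at a crosslink, read 8.04, 8.16 and 8.20 in the knockout and 8.05, 8.01 and 7.99 in the wild type. Knockout replicates 2 and 3 lay above all wild-type arrays and replicate 1 among them, and the difference was 0.12 (SE 0.09, interval -0.09 to 0.34). Without knockout replicate 1 it was 0.17. Mus81 and Eme1 encode the subunits of a single nuclease and differed by 0.025 (SE 0.09) and 0.005 (SE 0.10). Rad18, a ubiquitin ligase of stalled forks that also promotes FANCD2 marking, differed by 0.07 (SE 0.09).

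The members' average level differed from one knockout array to the next, by an amount that depended on how the arrays were scaled. On the deposited values, relative to each gene's own mean over 6 arrays, the 33 members averaged -0.07, 0.06 and 0.06 on knockout replicates 1 to 3 and -0.04, 0.02 and -0.02 on wild-type replicates 1 to 3. Knockout replicate 1 was the lowest array for 13 members (39.4%, against 22.3% of all genes), and knockout replicate 3 the highest for 13 (39.4%, against 21.5%). After a further quantile normalization those shares were 18.2% (22.1% of all genes) and 21.2% (19.1%), near the background, and after median centring 60.6% (31.6%) and 48.5% (25.9%). On knockout replicate 1, 7 members (21.2%, against 47.1% of all genes) lay above their own mean, and on knockout replicate 3, 28 (84.8%, against 52.5%). After quantile normalization these counts were 15 and 18 (45.5% and 54.5%, against 44.2% and 50.1% of all genes). After centring they were 2 and 29 (6.06% and 87.9%, against 34.6% and 61.0% of all genes). The dip on knockout replicate 1 averaged -0.16 over the BRCA genes and their partners and -0.12 over the core genes, and -0.016 over the resection and BLM genes and -0.04 over the kinases. After quantile normalization these averages were -0.11, -0.09, 0.037 and 0.025, with the sign of the last 2 turned, and after centring they were -0.21, -0.17, -0.07 and -0.09.

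**Figure D3:**
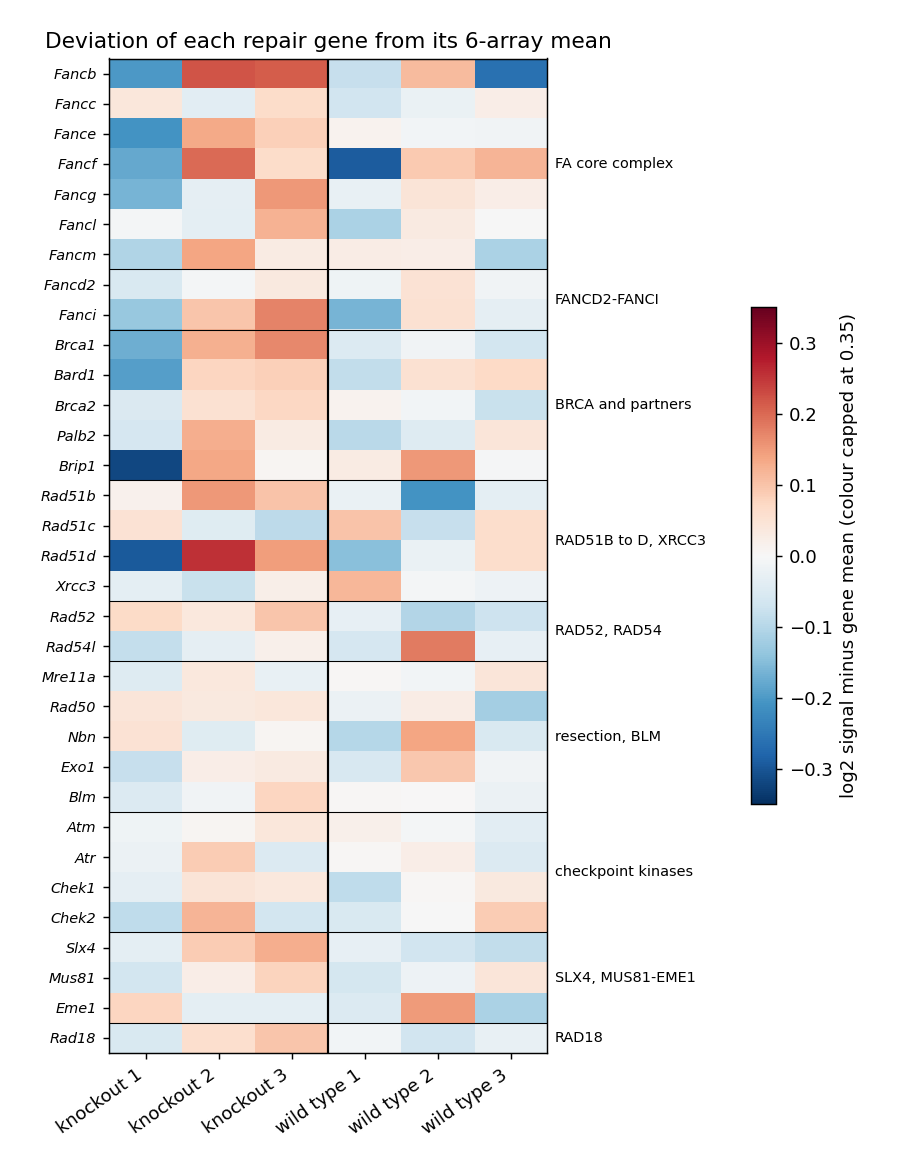
Deviation of each measured gene, on the deposited values (rows, grouped by role) from its own mean over 6 arrays, for each array (columns, knockout left of the line, wild type right of it), with red above and blue below the mean in log2 units. Blue cells gather on knockout replicate 1 in the core and BRCA rows, Brip1 and Rad51d are the lowest genes on that array, and the kinase and resection rows are paler.

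The median difference of the members moved with the arrays used. It was 0.064 with 27 members above 0 without knockout replicate 1, and 0.013 with 19 above 0 without wild-type replicate 1. With a block for the kind of sex-linked signal it was 0.056 with 28 above 0, against 50.3% of all genes. Wild-type replicate 2 was the only array of its kind of signal, so it added nothing to the difference in that fit. In each of these fits 0 members passed the adjusted or the unadjusted threshold.

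Genes of DNA replication and division shared the dip on replicate 1 of each group. Mitosis genes averaged -0.15 on knockout replicate 1 and -0.11 on wild-type replicate 1, against 0.08 and 0.12 on knockout replicates 2 and 3 and 0.06 and 0.001 on wild-type replicates 2 and 3. S phase genes averaged -0.10 and -0.09 on those replicate 1 arrays, 0.03 and 0.10 on the other knockout arrays and 0.06 and -0.009 on the other wild-type arrays. The array medians moved too, being 6.53 and 6.51 on the replicate 1 arrays and 6.44 to 6.47 on the other 4. After a further quantile normalization the members averaged -0.03 on both replicate 1 arrays, and mitosis genes -0.10 and -0.09. What share of the members' variation goes with cell division or with array scale was not tested.

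**Figure D4:**
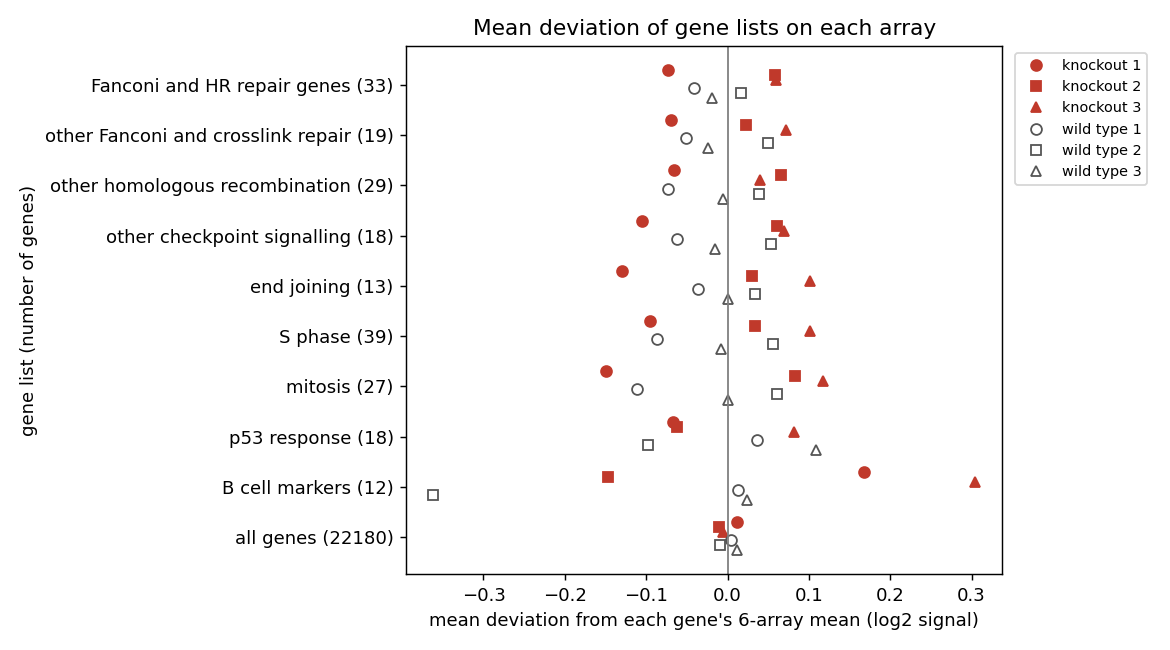
Mean deviation of each gene list (y axis, number of genes in brackets) from the genes' own 6-array means on each array (x axis, log2 signal), with filled red symbols for knockout and open grey symbols for wild type. The circles, replicate 1 of each group, lie below 0 for the repair, S phase and mitosis lists, while B cell markers follow another order.

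Other genes of the same pathways were read in the same fit. In the other Fanconi and crosslink repair genes (19 of 21 measured) 13 were above 0 and 6 below, with a median of 0.025. Faap20, a ubiquitin-binding part of the core complex, differed by -0.16 (SE 0.10) and Ercc4, the XPF nuclease gene, by 0.14 (SE 0.10). In the other homologous recombination genes (29 of 35 measured) 18 were above 0 and 11 below, with a median of 0.020. Dmc1, the meiotic recombinase gene, differed by -0.19 (SE 0.13) and Rmi1, a partner of BLM, by 0.34 (SE 0.24), with overlapping groups in both, and Rmi1 was the gene outside 1.5-fold where 28 of 29 intervals of that list stayed inside.

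In the other checkpoint genes (18 of 20 measured) 11 were above 0 and 7 below, with a median of 0.015, Atrip, the partner of ATR, at 0.21 (SE 0.15) and Rnf8, a ubiquitin ligase of break signalling, at 0.13 (SE 0.11). End joining genes, the competing route of break repair, had 7 above 0 and 6 below (13 of 15 measured) and a median of 0.006. Lig3, a DNA ligase gene, read 9.59, 9.71 and 9.74 in the knockout and 9.80, 9.98 and 9.85 in the wild type, so its groups did not overlap. Knockout minus wild type came to -0.20 (SE 0.10, limma adjusted p = 1), and to 0.10 (SE 0.09) for Parp1, the nick sensor gene. In these 4 lists 0 genes had an unadjusted p under 0.05.

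The p53 response, which follows unrepaired damage, had 7 genes above 0 and 11 below (18 of 21 measured), with a median of -0.013. Fas, a death receptor gene, differed by -0.26 (SE 0.12) and Pmaip1, which encodes NOXA, by -0.19 (SE 0.16). S phase genes (39 of 42 measured) had 25 above 0 and 14 below with a median of 0.024, with the replication fork genes Gins3 at 0.18 (SE 0.10) and Pole at -0.14 (SE 0.09). Mitosis genes (27 of 28 measured) had 17 above 0 and 10 below with a median of 0.034, with Ccna2, cyclin A2, at 0.23 (SE 0.11) and Pttg1, securin, at 0.21 (SE 0.13). None of these 3 lists held a gene with an unadjusted p under 0.05.

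Markers of other cells in the marrow were measured beside them. B cell markers (12 of 14 measured, 9 above 0) had a median of 0.15, with Cd79a at 0.56 (SE 0.27) and Vpreb2 at -0.25 (SE 0.14). Their mean signal ran from 6.51 to 6.96 in the knockout and from 6.29 to 6.68 in the wild type, lowest on replicate 2 of each group, an order unlike that of the repair genes. Granulocyte and monocyte markers (14 of 14, 6 above 0) had a median of -0.006, with Csf3r at -0.19 and S100a8 at 0.39. Mast cell and basophil markers (9 of 9, 3 above 0) had a median of -0.014, with Hdc at 0.18 and Mcpt8 at -0.35. Macrophage markers (10 of 10, 4 above 0) had a median of -0.046, with C1qa at -0.31 and C1qc at -0.18.

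T and NK cell markers (10 of 11, 6 above 0) had a median of 0.037, with Cd4 at 0.27 and Nkg7 at -0.28. Stromal and endothelial markers (8 of 8, 3 above 0) had a median of -0.023, with Col1a2 at -0.39 and Col1a1 at -0.14. MEP markers (17 of 18, 10 above 0) had a median of 0.009, with the megakaryocytic genes Itga2b at -0.34 (SE 0.14) and Pf4 at -0.48 (SE 0.21). Itga2b and Col1a2 were the genes of these 7 lists with an unadjusted p under 0.05, and 0 passed the adjusted test. Their part in the values of the repair genes was not tested.

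Promoter sequence was examined because E2F factors are known to drive many of these genes in dividing cells. RefSeq windows of GRCm38.p6, from 250 bases before to 50 bases after the start of transcription, were held for 28 of the 33 members. The letters TTTNNCGC, with N for any base, were searched on both strands as a loose E2F pattern. They stood in the windows of 6 of the 28, Bard1, Brca2, Brip1, Chek2, Fancg and Rad51c. That is 21.4% of them, against 5.93% of 27025 genes with a window. The 200 bases before the start are printed for the 4 of these genes whose match lies wholly within them, each read 5′ to 3′ on the strand of the gene, with the match in capitals.
Brca2, chr5:150522421-150522620, plus strand: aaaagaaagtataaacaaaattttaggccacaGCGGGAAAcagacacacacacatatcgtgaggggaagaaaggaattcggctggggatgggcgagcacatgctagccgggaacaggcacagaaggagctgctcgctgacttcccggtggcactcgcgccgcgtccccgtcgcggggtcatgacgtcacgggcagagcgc
Brip1, chr11:86201194-86201393, minus strand: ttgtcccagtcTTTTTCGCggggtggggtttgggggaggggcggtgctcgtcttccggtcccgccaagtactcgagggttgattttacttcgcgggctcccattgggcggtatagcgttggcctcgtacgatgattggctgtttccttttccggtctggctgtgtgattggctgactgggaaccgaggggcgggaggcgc
Chek2, chr5:110839783-110839982, plus strand: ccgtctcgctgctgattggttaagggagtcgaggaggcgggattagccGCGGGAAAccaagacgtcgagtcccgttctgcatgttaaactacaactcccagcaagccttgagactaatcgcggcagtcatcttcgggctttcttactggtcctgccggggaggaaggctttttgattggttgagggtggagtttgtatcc
Fancg, chr4:43010302-43010501, minus strand: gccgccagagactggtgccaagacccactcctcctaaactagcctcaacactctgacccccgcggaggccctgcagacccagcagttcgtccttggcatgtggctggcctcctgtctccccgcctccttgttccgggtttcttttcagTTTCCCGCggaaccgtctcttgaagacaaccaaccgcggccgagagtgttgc

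Bard1 and Chek2 hold 2 matches each in the window, and the second of Chek2 lies after the start, outside the printed bases. In Brca2 and Chek2 the printed match is the reverse complement, GCGNNAAA, beginning 168 and 152 bases before the start. In Brip1 and Fancg it reads forward from 189 and 52 bases before the start. The 6 genes with a match averaged -0.13, 0.05 and 0.03 on knockout replicates 1 to 3, and the 22 without one -0.06, 0.06 and 0.07. On the wild-type arrays the averages were -0.005, 0.03 and 0.03 with a match and -0.05, 0.004 and -0.03 without. Their median differences between knockout and wild type were -0.025, with 1 of 6 above 0, and 0.042, with 19 of 22 above 0. These are descriptions with no test, and binding of E2F factors was not measured. The -0.35 of Brip1 between the replicate 1 arrays enters the array averages of the smaller set. The median and the count above 0 do not depend on how large the Brip1 difference is. They do depend on knockout replicate 1. Without that array Bard1, Brip1, Chek2 and Fancg moved above 0, Bard1 to 0.067, Brip1 to 0.014 and Fancg to 0.047. Brca2 stayed above 0 and Rad51c below, at -0.094. With all arrays Bard1, Chek2 and Fancg differed by -0.024 (SE 0.11), -0.023 (SE 0.10) and -0.027 (SE 0.11).

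The CCAAT box and the cell cycle homology element, known in such promoters, were searched as well, and so was a T-box core. The CCAAT box, CCAAT on either strand, stood in the windows of 16 of 28 members (57.1%, against 41.1% of genes), and the cell cycle homology element TTTGAA in 3 (10.7%, against 20.2%). A T-box core, GGTGTGA on either strand, is part of the site that T-bet and its relatives bind. It stood in the window of 1 member, Rad52, 3.57% of the members against 4.60% of genes. The 200 bases before the Rad52 start are shown because that gene is also among the 3 whose groups did not overlap, with the match, in the reverse orientation, in capitals.
Rad52, chr6:119902498-119902697, plus strand: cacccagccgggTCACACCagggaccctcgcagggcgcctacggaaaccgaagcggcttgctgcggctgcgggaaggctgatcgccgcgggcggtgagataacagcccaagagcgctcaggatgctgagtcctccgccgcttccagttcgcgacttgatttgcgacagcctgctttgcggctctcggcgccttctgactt

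The match begins 188 bases before the start. Of the genes whose groups did not overlap, Rad51b had no T-box match in its windows and Rad50 had no window. A match to 7 letters is a description of the sequence, and binding of T-bet was not measured here.

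Chromosome 11, which carries Tbx21, also carries 7 of the 33 members, Brca1, Brip1, Eme1, Fancl, Rad50, Rad51c and Rad51d. Their differences ran from -0.12 to 0.08 with a median of 0.05, 5 above 0 and 2 below, and none passed the test. Brca1, Eme1 and Rad51c lie within 10 Mb of Tbx21 in the GRCm38.p6 gene table, where DNA of the strain in which a knockout was made can remain. They differed by 0.08, 0.005 and -0.05, and all 3 had overlapping groups.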

How the data were processed

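The deposited table holds 1 log2 signal for each of 41345 probe sets on 6 arrays. The submitters' processing notes name Affymetrix Expression Console 1.4.1.46 as the authors' tool; for background correction, normalization and genome build the sources used here give nothing. The log2 scale was inferred from the deposited values, whose maximum of 14.2 exceeds 11.1, the natural log of the largest 16-bit intensity. Detection calls were not used, and the number of arrays limits the precision.

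Groups and replicate numbers came from the sample titles. Names came from the array's annotation table: 23521 probe sets had 1 gene symbol, 1814 several, and 16010 none here. Chromosomes came from a RefSeq gene table and promoters from RefSeq windows, both of GRCm38.p6, matched by gene ID; all 33 members were in the gene table. Mre11a is kept as the annotation spells it.

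Knockout minus wild type was fitted with limma 3.58.1 (lmFit, eBayes) in R 4.3.3 on all probe sets, 2-sided, with Benjamini-Hochberg adjustment and a threshold of 0.05. SE and 95% intervals are limma's and use the moderated variance, so they can be wider than a gene's own SD alone would give. The smallest SE over all genes was 0.080. The test was checked on simulated data. Dim means a 6-array mean in the lowest 30% of probe sets. Values on each array are given for the 5 members of smallest p in each direction and for Fancd2, Fanci, Brca1, Brca2, Atm, Atr and Chek1; of each other list the 2 genes of smallest p are named. Lig3's array values, Gata1, Car1 and the lowest MEP markers, and the values singled out for spread, were chosen after their values were seen. The members and lists were chosen with earlier results of these data known.

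Replicate numbers occur in both groups. Deviations from group means of same-numbered arrays correlated across genes at 0.285, 0.116 and 0.115 for numbers 1 to 3, each above 0.1, and across all probe sets at 0.212, 0.057 and 0.140. By that cut of 0.1 on the gene values the numbers were treated as pairs, in the blocked alternative alone. The labels do not say that same-numbered arrays are paired. Correlations between arrays of different numbers are not given here, so pairing is not shown. Alternatives were that block, a further quantile normalization, median centring, no dim probe sets, array weights, limma-trend, the mean of a gene's probe sets, a block for sex-linked signal, and each array left out.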

Additional observations from a re-analysis of the deposited data

How the results depend on the processing

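In the 14 alternative settings 0 of 33 members passed the adjusted limma threshold and 0 the unadjusted one. The smallest unadjusted p was 0.058, for Rad51b with array weights, and the lowest adjusted p was 0.709. With the replicate block the median difference was 0.025, as without it, and the smallest adjusted p was 0.822; the block changed no call. The median ranged from 0.013 to 0.064 when 1 array was left out. The sign was the same in all 14 settings for 16 members, among them Rad51b, Rad52, Slx4, Fancb, Rad50, Brca1 and Brca2, and turned at least once for 17. With quantile normalization Fance, Mus81 and Eme1 turned to -0.020, -0.00070 and -0.018. With array weights Bard1 and Chek2 turned to 0.012 and 0.022, and Nbn and Eme1 to -0.018 and -0.016. With the block for sex-linked signal Fancg, Fancd2, Bard1, Rad54l and Exo1 turned to 0.016, 0.011, 0.022, 0.020 and 0.034. Leaving out 1 array at a time gave ranges across 0 for 17 members: Atr -0.028 to 0.040, Bard1 -0.073 to 0.067, Blm -0.027 to 0.035, Brip1 -0.21 to 0.014, Chek1 -0.0025 to 0.060, Chek2 -0.088 to 0.016, Eme1 -0.049 to 0.081, Exo1 -0.049 to 0.025 and Fancd2 -0.039 to 0.0056. For Fance they were -0.059 to 0.11, Fancf -0.077 to 0.16, Fancg -0.11 to 0.047, Fancm -0.019 to 0.10, Mus81 -0.0079 to 0.064, Nbn -0.037 to 0.082, Rad51d -0.037 to 0.24 and Rad54l -0.11 to 0.010. The cause of these turns was not tested. With 3 arrays per group a real difference can go uncalled, and the 95% intervals are not detection limits of the adjusted test. In the main fit the smallest unadjusted limma p over all genes was 0.00017, and the lowest adjusted limma p was 0.837. Signal can also understate a difference in RNA.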
